A study of Mus musculus with 32 samples.

Results

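The genes described here encode the core enzymes of mitochondrial fatty acid oxidation, Cpt1a, Cpt2, Acadm, Acadl, Acadvl, Hadha and Hadhb, and a pair of nuclear receptors that control such genes, Ppara and Ppard. These 9 genes were set by name, not by a threshold on a value, though earlier results of these data were known, and come from 24890 gene symbols, and all 9 were among the 15036 with enough counts to be tested. Polyadenylated RNA was sequenced from E14, a wild-type mouse embryonic stem cell line, which was grown on gelatin in 15% serum with 1000 U/mL of the cytokine LIF, 3 µM of the GSK3 inhibitor CHIR99021 and 1 µM of the MEK inhibitor PD0325901. That medium was common to both arms. To it T0901317, which activates the liver X receptors (LXR), was added at 10 µM in the NrESC arm but not in the ESC arm. Samples were taken at passages 0, 2, 4, 6, 8, 10, 12 and 14 of each arm, with 2 libraries per sampling, so that there are 16 groups and 32 libraries. All cells are of 1 line, and the labels do not say how long the NrESC cells of passage 0 had been treated or whether libraries of the same group are separate cultures. The p-values therefore measure only the spread between these samples.

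Library totals ran from 24989651 to 50463483 counts. The direct LXR targets Abcg1, Abca1, Mylip and Srebf1 served as a check of the treatment, and all 4 rose in NrESC at 8 of 8 passages, by 1.73 to 4.17 on the log2 scale. All 7 embryonic stem cell markers (Pou5f1, Sox2, Nanog, Zfp42, Esrrb, Klf4 and Tfcp2l1) were above 1 TPM, a level corrected for transcript length. Their sum was 4583 to 5593 TPM in ESC and 3984 to 5342 TPM in NrESC libraries, but they moved apart. On the log2 scale Nanog (-0.45), Sox2 (-0.32) and Zfp42 (-0.32) fell, each at 8 of 8 passages. Pou5f1 (0.15) and Tfcp2l1 (0.15) rose, and Klf4 (0.16) and Esrrb (-0.03) were not called. Without passage 8 Klf4 was called (0.24), Zfp42 stood at -0.18, still called, and Esrrb at 0.03, not called. Markers of other cell types were lower: 7 fibroblast or feeder genes summed to 9.77 to 18.96 TPM in ESC and 10.57 to 23.31 TPM in NrESC, and 6 primitive endoderm genes to 3.69 to 6.43 and 4.18 to 10.69 TPM. Of these, 4 and 5 were under 1 TPM in both arms, and none was at 0 in every library. The 6 trophectoderm markers summed to 68.98 to 104 TPM in ESC and 102 to 152 TPM in NrESC, but moved apart. The keratin Krt8, which went from 37.8 to 73.4 TPM, carried most of the higher sum. Tfap2c rose by 0.16 on the log2 scale (0.11 and not called without passage 8), and Krt18 was not called. The regulators Cdx2 and Gata3 fell by 1.34 and 1.82, each at 8 of 8 passages. The 4 markers of 2-cell-like cells summed to 11.1 to 91.98 TPM in ESC and 4.78 to 18.1 TPM in NrESC. The part of such cells in the differences below was not tested, and in bulk RNA fewer cells of a type and less RNA per cell cannot be told apart. On the first principal component of log2 CPM (counts scaled to library size), both passage 8 libraries of NrESC were the highest, at 54.8 and 54.7. The other 30 lay between -50.1 and 38.3. On the second component both libraries were the lowest, at -47.6 and -45.7, where the others lay between -21.3 and 42.9. They also had the lowest sum of stem cell markers (3984 and 3989 TPM) and the highest sums of fibroblast markers (22.6 and 23.3 TPM) and primitive endoderm markers (10.7 and 10.5 TPM). The value without passage 8 is given where leaving it out changed a call, a count or a sign of a gene or list described below, or moved its mean log2 fold change by over 0.1.

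Long-chain fatty acids enter mitochondria as carnitine esters. Cpt1 enzymes of the outer membrane attach carnitine and are inhibited by malonyl-CoA, the translocase Slc25a20 carries the ester across the inner membrane, and Cpt2 turns it back into acyl-CoA. Acyl-CoA dehydrogenases then take the first oxidation step, Acadvl on very long chains, Acadl on long chains and Acadm on medium chains, and the trifunctional protein, built of the subunits Hadha and Hadhb, carries out the remaining steps on long chains. PPARs are nuclear receptors that are activated by fatty acids and bind DNA together with a retinoid X receptor (RXR), the partner that LXR also uses. Many oxidation genes are known PPAR targets in liver, heart and muscle.

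Upstream sequences are shown for the 3 dehydrogenases and for Cpt2, chosen after their values were seen, because these genes of a single pathway moved in opposite directions. Each is the 250 bases before the RefSeq start of transcription on GRCm38.p6, 5′ to 3′ on the gene's own strand. Capitals mark the letters AGGTCA read on either strand, the half-site that PPAR, RXR and LXR share.
Acadm (chr3:153944644-153944893, minus strand): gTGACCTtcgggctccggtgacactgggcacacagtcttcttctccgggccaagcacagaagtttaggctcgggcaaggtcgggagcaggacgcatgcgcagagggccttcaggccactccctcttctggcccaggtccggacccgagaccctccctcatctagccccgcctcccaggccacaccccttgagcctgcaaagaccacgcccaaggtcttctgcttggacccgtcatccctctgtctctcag
Acadvl (chr11:70015429-70015678, minus strand): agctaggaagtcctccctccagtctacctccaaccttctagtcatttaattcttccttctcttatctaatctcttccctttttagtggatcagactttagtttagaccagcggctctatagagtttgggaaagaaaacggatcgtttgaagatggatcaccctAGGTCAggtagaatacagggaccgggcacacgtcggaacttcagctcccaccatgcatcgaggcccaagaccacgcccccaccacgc
Acadl (chr1:66863310-66863559, minus strand): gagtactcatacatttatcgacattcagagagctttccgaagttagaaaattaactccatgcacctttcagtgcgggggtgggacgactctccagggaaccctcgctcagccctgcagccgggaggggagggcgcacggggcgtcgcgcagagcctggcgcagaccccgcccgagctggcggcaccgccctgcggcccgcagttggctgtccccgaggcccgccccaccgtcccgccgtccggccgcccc
Cpt2 (chr4:107923590-107923839, minus strand): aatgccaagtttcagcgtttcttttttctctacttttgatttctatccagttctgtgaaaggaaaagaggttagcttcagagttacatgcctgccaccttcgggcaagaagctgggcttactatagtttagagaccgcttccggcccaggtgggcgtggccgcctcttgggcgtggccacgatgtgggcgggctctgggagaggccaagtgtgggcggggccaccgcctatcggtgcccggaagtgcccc

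The half-site stands once in the windows of Acadm and Acadvl, both of which fell in NrESC, and once in that of Cpt1a, which was not called. It is absent from the windows of Acadl, Cpt2 and Ppard, which rose, and from that of Hadhb, which fell. The windows of Hadha and Ppara, which were not called, also lack it. A link between the half-site and the direction of change was not tested. Over 32851 RefSeq upstream windows of this length, 14% hold it. The PPAR-type repeat AGGTCANAGGTCA (DR1, 0.0335% of windows) and the LXR-type repeat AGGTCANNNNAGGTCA (DR4, 0.0152%), searched on both strands, were found in none of the 9. The GC box GGGCGG on either strand stands in 7 of the 9 windows, all but those of Acadm and Acadvl, against 32.7% of all windows. These are matches of letters and not binding sites, and the windows cover only the sequence next to 1 start per gene. Hadha and Hadhb lie head to head on chromosome 5, with RefSeq starts 273 bases apart, so that 228 bases of their upstream windows are the same.

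Per transcript length, Hadha and Acadm were the most abundant of the 9 in ESC, at 118 ± 6.89 and 113 ± 11.2 TPM (SD over 8 passages, as for all TPM values here). Cpt1a followed at 64.7 ± 5.72 and Hadhb at 57.8 ± 4.43 TPM. Hadhb thus stood below Hadha, its partner in the complex. Ppard (20.4 ± 1.29), Acadvl (19.8 ± 1.56), Cpt2 (17.0 ± 1.53) and Acadl (13.6 ± 1.43 TPM) formed a lower tier, in which the passage ranges of neighbours overlapped. Ppara was nearly absent, at 0.136 ± 0.028 TPM in ESC and 0.143 ± 0.0504 TPM in NrESC. In NrESC the same order held down to Hadhb (Hadha 112, Acadm 89.8, Cpt1a 63.0 and Hadhb 49.9 TPM). Below it Cpt2 (20.6 TPM) passed Acadvl (16.1 TPM), with Ppard at 21.8 and Acadl at 14.9 TPM. Of the 3 Cpt1 genes, Cpt1a led, Cpt1c, the form of brain, stood at 21.9 TPM in ESC and 19.9 in NrESC, and Cpt1b, the form of muscle, at 2.31 and 6.51 TPM.

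**Figure D1:**
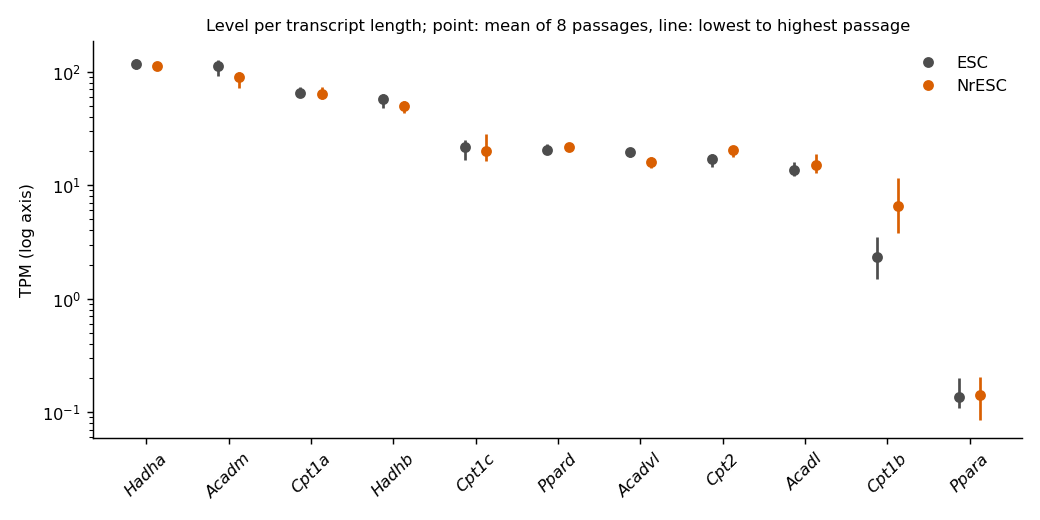
Level of the 9 genes and of Cpt1b and Cpt1c in TPM on a log axis; points are means over 8 passages in ESC (grey) and NrESC (orange), and lines run from the lowest to the highest passage mean of 2 libraries. Hadha and Acadm lie near 100 TPM, Ppara near 0.14 TPM, and Cpt1b is at 2.31 TPM in ESC and 6.51 TPM in NrESC.

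The first comparison asked what T0901317 changed in the mean of the 8 passages, with the passage as the unit of replication. The 9 genes did not move as a block. Cpt2, Acadl and Ppard rose in NrESC, Acadm, Acadvl and Hadhb fell, and Cpt1a, Hadha and Ppara were not called (edgeR's quasi-likelihood test, Benjamini-Hochberg adjusted p under 0.05). Of all genes tested, 55.5% were called, 28.3% higher and 27.2% lower, so 6 of 9 called, 3 in each direction, is near the background. Changes were small, from a fall of 19.4% (Acadm) to a rise of 22.9% (Cpt2). All 8 passages had the same sign in Cpt2, Acadm, Acadvl and Hadhb, 4 of 9 genes against 38.1% of all genes. In none of the 9 did the 16 ESC and 16 NrESC libraries separate without overlap, as 2.98% of all genes did. Without passage 8 the counts were 2 higher and 3 lower (28.5% and 27.6% of all genes), with Acadl no longer called. An offset for the GC content of transcripts was added after the data were seen. With it the counts were 2 higher and 4 lower (25.6% and 29.1% of all genes), with Ppard lost and Hadha called.

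**Figure D2:**
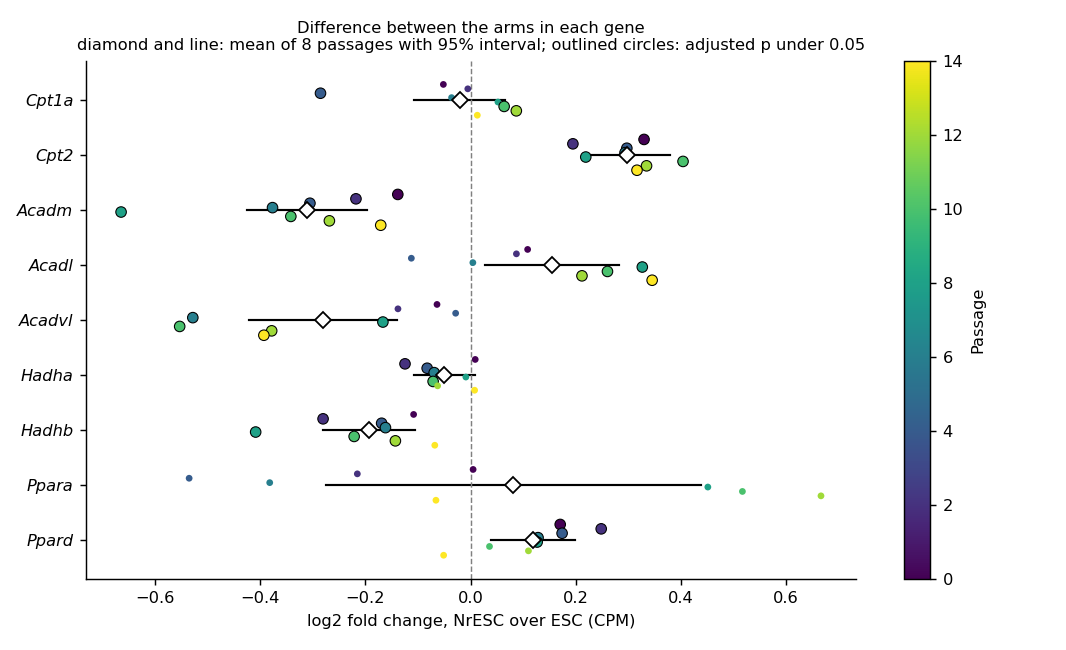
The log2 fold change of NrESC over ESC (horizontal axis) in each of the 9 genes; circles are single passages, coloured by passage number and outlined where the adjusted p is under 0.05, and diamonds with lines are the mean of 8 passages with its 95% interval. All circles of Cpt2 lie to the right of 0 and all of Acadm, Acadvl and Hadhb to the left, and the passage 8 circle of Acadm lies at -0.66.

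The carnitine acyltransferases on the 2 mitochondrial membranes differed. Cpt1a, the entry step, lay between 146 and 177 CPM in the 16 ESC libraries (median 152) and between 143 and 184 CPM in the 16 NrESC libraries (median 153), so the arms overlapped almost wholly. Its passage means were 159 ± 12.1 CPM in ESC and 156 ± 12.3 in NrESC (SD over 8 passages), with a log2 change of -0.02 (SE 0.0397, 95% interval -0.11 to 0.07, adjusted p = 0.684 in edgeR). It was higher at 4 passages and lower at 4. Its levels nevertheless moved within each arm. In ESC they were high at passage 0 (168 and 163 CPM), passage 4 (174 and 177) and passage 8 (177 and 177), and between 146 and 155 CPM in the other 10 libraries. In NrESC passage 8 was highest (184 and 183 CPM), passage 4 was the lowest of all 16 groups (143 and 144), and the other 12 libraries lay between 147 and 164 CPM. At passage 4 the log2 fold change was -0.29 (SE 0.0276), the only passage at which Cpt1a fell, while it rose at passages 10 and 12 by 0.06 and 0.09 (adjusted p = 0.0442 and 0.00737 in edgeR). Leaving out passage 4 turned the mean to 0.018, not called.

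Cpt2, the enzyme of the inner membrane, rose at every passage. Its ESC libraries lay between 18.1 and 24.7 CPM (median 21.7) and its NrESC libraries between 23.2 and 28.8 CPM (median 26.9). The ranges overlapped only between the higher ESC libraries of passages 0, 2 and 4 and the 2 NrESC libraries of passage 6 (24.0 and 23.2 CPM). The mean went from 21.6 ± 1.75 to 26.6 ± 1.48 CPM, a log2 change of 0.30 (SE 0.0375, adjusted p = 7.1e-05 in edgeR). Single passages ran from 0.19 at passage 2 to 0.40 at passage 10, and all 8 were called. The ratio of Cpt2 to Cpt1a counts in the same libraries was 0.128 to 0.158 in ESC and 0.144 to 0.194 in NrESC. It was higher in NrESC at 8 of 8 passages, by a mean of 0.32 ± 0.13 on the log2 scale (SD over 8 passages).

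**Figure D3:**
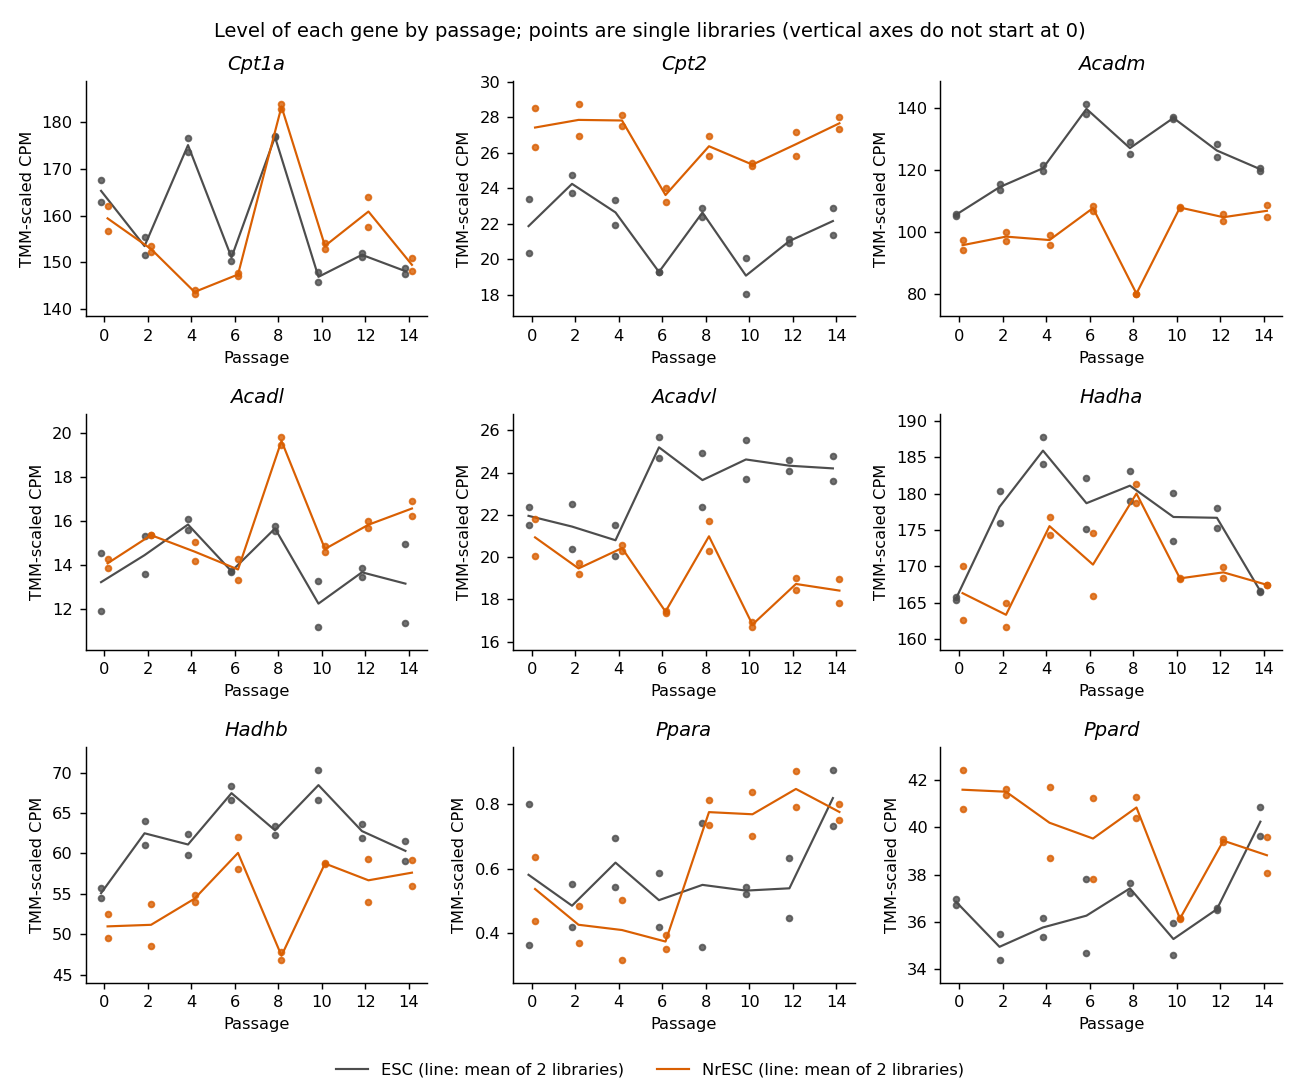
TMM-scaled CPM of the 9 genes by passage, 1 panel per gene; points are single libraries, lines join the means of 2 libraries, and vertical axes do not start at 0. The NrESC points of Cpt2 lie above and those of Acadm below the ESC points at every passage, and Acadm and Hadhb drop at passage 8 of NrESC.

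Among the acyl-CoA dehydrogenases, the medium-chain and very-long-chain enzymes fell and the long-chain enzyme rose slightly. Acadm, whose loss causes the commonest inherited defect of fatty acid oxidation, went from 105 to 141 CPM in ESC libraries (median 123) to 80.1 to 109 CPM in NrESC libraries (median 102). Only the 2 ESC libraries of passage 0 (106 and 105 CPM) lay within the NrESC range. Its mean fell from 124 ± 11.2 to 99.9 ± 9.34 CPM, a log2 change of -0.31 (SE 0.0521, adjusted p = 0.00044 in edgeR), and it fell at all 8 passages. The fall was smallest at passage 0 (-0.14, SE 0.0313) and largest at passage 8 (-0.66, SE 0.0311), where both NrESC libraries stood at 80.1 CPM. Without passage 8 the mean was -0.26 and still called.

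Acadvl fell by 0.28 (SE 0.0644, adjusted p = 0.00316 in edgeR), from 23.3 ± 1.64 CPM in ESC (libraries 20.1 to 25.7, median 23.7) to 19.2 ± 1.58 in NrESC (16.7 to 21.8, median 19.1). The arms ran close at the first 3 samplings, with log2 fold changes of -0.06, -0.14 and -0.03 at passages 0, 2 and 4, none of them called. From passage 6 on it was called at every passage, with falls of 0.53, 0.17, 0.55, 0.38 and 0.39. At passage 10, for example, the ESC libraries stood at 25.5 and 23.7 CPM and the NrESC libraries at 16.7 and 16.9 CPM. A straight line did not capture this: the slope over passage number differed between the arms by -0.03 per passage (SE 0.0113) and was not called.

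Acadl, at 14.0 ± 1.25 CPM in ESC (libraries 11.2 to 16.1, median 13.8) and 15.6 ± 1.88 in NrESC (13.3 to 19.8, median 15.2), had the weakest call of the 6. Its log2 fold change was 0.16 (SE 0.0582, adjusted p = 0.0392 in edgeR), higher at 7 of 8 passages. Passages 8, 10, 12 and 14 were called, at 0.33, 0.26, 0.21 and 0.35, and passages 0 to 6 were not, at -0.11 to 0.11. The call was lost without replicate 1 or replicate 2 of every group (0.15 and 0.16), on the TPM scale (0.13) and without any 1 of passages 0, 2, 8, 10, 12 and 14 (0.12 to 0.17). Relative to Acadl, both other dehydrogenases were lower in NrESC. The ratio of Acadm to Acadl counts was 7.60 to 11.1 in ESC and 4.08 to 7.83 in NrESC, lower at 8 of 8 passages by a mean of 0.47 ± 0.25 on the log2 scale. That of Acadvl to Acadl was lower at 7 of 8 passages, by 0.44 ± 0.30, with passage 4 the exception (1.31 in ESC and 1.39 in NrESC).

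The subunits of the trifunctional protein parted. Hadha lay between 165 and 188 CPM in ESC libraries (median 177) and between 162 and 181 CPM in NrESC (median 168). Its mean went from 176 ± 6.92 to 170.0 ± 5.34 CPM, a log2 change of -0.05 (SE 0.0267, 95% interval -0.11 to 0.01, adjusted p = 0.129 in edgeR). It was lower at 6 of 8 passages and fell at passages 2, 4, 6 and 10, by 0.12, 0.08, 0.07 and 0.07. Of the 9 genes it was the steadiest over the 16 groups, whose highest mean was 1.14 times the lowest. Hadhb fell from 62.6 ± 4.17 CPM (libraries 54.5 to 70.3, median 62.4) to 54.6 ± 4.44 (46.9 to 62.1, median 54.4), a log2 change of -0.19 (SE 0.0403, adjusted p = 0.00175 in edgeR). It was lower at 8 of 8 passages and called at 6 of them, not at passages 0 (-0.11, adjusted p = 0.08 in edgeR) and 14 (-0.07, adjusted p = 0.26). As with Acadm, the fall was largest at passage 8 (-0.41, with NrESC libraries at 46.9 and 47.9 CPM, the lowest of all groups), and without that passage the mean was -0.16 and still called.

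The count ratio of Hadhb to Hadha was 0.329 to 0.388 in ESC and 0.263 to 0.356 in NrESC, and lower in NrESC at 8 of 8 passages, by 0.14 ± 0.11 on the log2 scale. These ratios compare genes within the same libraries and do not depend on how libraries are scaled. The 4 ratios were chosen after the data were seen, because their genes had moved apart, so they are descriptions and were not tested. Without passage 8 the mean differences were -0.11 for Hadhb to Hadha, 0.34 for Cpt2 to Cpt1a, -0.39 for Acadm to Acadl and -0.43 for Acadvl to Acadl.

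**Figure D4:**
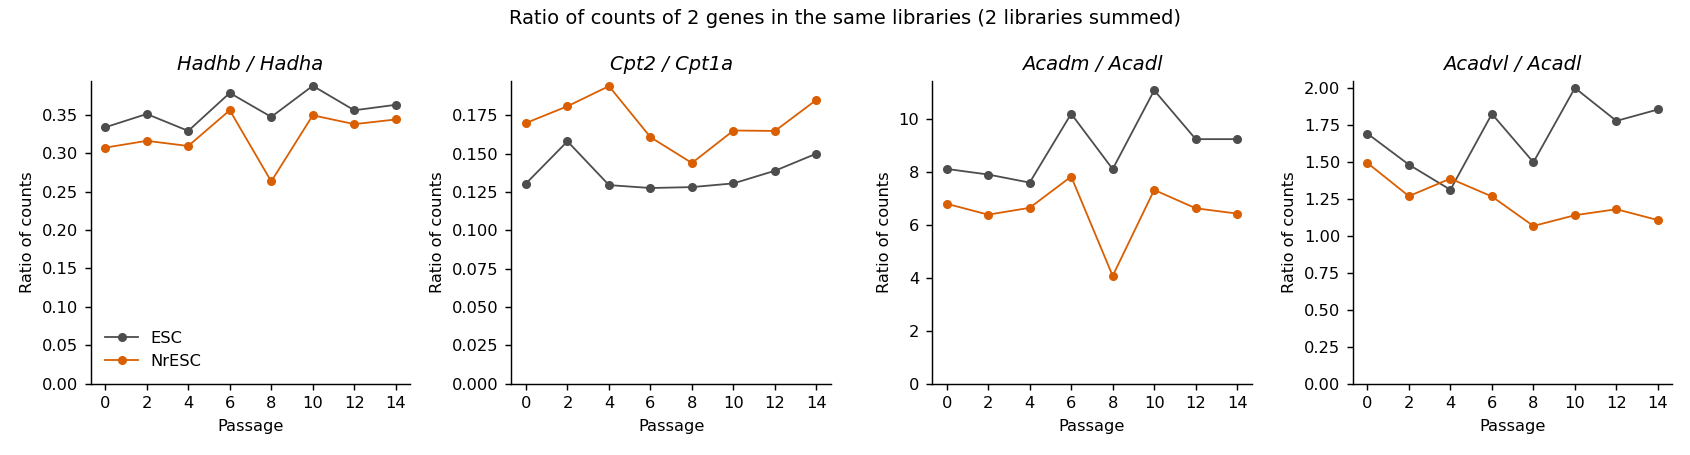
Ratio of the counts of 2 genes in the same libraries (vertical axis, from 0) by passage, with the 2 libraries of a group summed, in ESC (grey) and NrESC (orange). The Hadhb to Hadha and Acadm to Acadl ratios are lower and the Cpt2 to Cpt1a ratio is higher in NrESC at all 8 passages, and the Acadvl to Acadl lines cross at passage 4.

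Of the receptors, Ppard was expressed and Ppara barely. Ppard, the widely expressed PPAR, went from 36.7 ± 1.65 CPM in ESC (libraries 34.4 to 40.8, median 36.5) to 39.8 ± 1.77 in NrESC (36.1 to 42.4, median 40.0), a log2 change of 0.12 (SE 0.0365, adjusted p = 0.0164 in edgeR). It was higher at 7 of 8 passages and called at passages 0, 2, 4, 6 and 8, at 0.13 to 0.25. At passage 14 the ESC libraries reached their highest level (39.6 and 40.8 CPM) and the sign turned (-0.05, not called). The call is the least settled of the 6 beside that of Acadl. It was lost without passage 2 (0.10) and on the TPM scale (0.10 or below), and with an offset for the GC content of transcripts the value was -0.047, not called. Ppard had the highest GC content of the 9, at 59.8% against a median of 50.8% over genes, and the fold changes of all genes rose with GC content (Spearman rho 0.258 across genes, which are not independent replicates).

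Ppara, the PPAR of liver and heart, was counted only 8 to 46 times per library. It lay between 0.358 and 0.905 CPM in ESC libraries (median 0.547) and between 0.318 and 0.901 CPM in NrESC libraries (median 0.667), with a log2 change of 0.08 (SE 0.164, 95% interval -0.28 to 0.44, adjusted p = 0.695 in edgeR). In NrESC its group means were 0.374 to 0.537 CPM at passages 0 to 6 and 0.768 to 0.846 CPM at passages 8 to 14, and single libraries of these early and late passages did not overlap (0.318 to 0.635 against 0.700 to 0.901 CPM), a split seen in the data and not tested. In ESC the group means stayed at 0.485 to 0.618 CPM up to passage 12 and reached 0.818 CPM at passage 14. The slope in NrESC was 0.07 per passage on the log2 scale (SE 0.024, adjusted p = 0.125 in edgeR). No single passage was called. A mean difference as large as 2-fold lies outside the 95% interval, while smaller ones within it were not resolved.

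In the single passages (16-group edgeR fit, adjusted p under 0.05), 3 of 9 were called at passage 0 (32.4% of all genes), 2 higher (17.6%) and 1 lower (14.8%). Those were Cpt2, Ppard and Acadm. At passage 2, 5 were called (48.5%), 2 higher (24.7%) and 3 lower (23.8%), with Hadha and Hadhb now among the lower genes. Passage 4 called 6 (54.3%), 2 higher (27.4%) and 4 lower (26.9%). Cpt1a fell there. Passage 6 called 6 (48.7%), 2 higher (23.6%) and 4 lower (25.1%). Acadvl took the place of Cpt1a. Passage 8 called 6 (69.8%), 3 higher (35.2%) and 3 lower (34.6%), the highest share of all genes at any passage. Passage 10 called 7 (55.5%), 3 higher (27%) and 4 lower (28.5%). Here Cpt1a rose with Cpt2 and Acadl. Passage 12 called 6 (47.1%), 3 higher (23.1%) and 3 lower (24%). Hadha was no longer among them. Passage 14 called 4 (41%), 2 higher (19.7%) and 2 lower (21.3%), which were Cpt2, Acadl, Acadm and Acadvl. Of these 43 calls, 17 were lost when 1 of the 4 libraries of that passage was left out, and 26 were not. Those lost were Cpt2 at passage 2, Cpt1a at passages 10 and 12, Acadl at 10, 12 and 14, Acadvl at 8, Hadha at 4, 6 and 10, Hadhb at 4, 6 and 12, and Ppard at 0, 4, 6 and 8. The count at passage 10 fell from 7 to 4 without replicate 2 of NrESC, where Cpt1a (0.06), Acadl (0.25) and Hadha (-0.07) were lost. Of the 9 genes, Cpt2 and Acadm were called at all 8 passages. The difference between the arms varied among passages in 7 of 9 genes, against 69.4% of all genes. The variation was clearest in Acadm (adjusted p = 1.88e-12), Cpt1a (8.46e-10) and Acadvl (1.03e-06), and was not called for Cpt2 (adjusted p = 0.375) and Ppara (0.261). Without passage 8 it was no longer called for Hadha and Hadhb. No straight-line slope over passage number was called in any of the 9, in ESC (0.479% of all genes called), in NrESC (2.4%) or for the difference of the slopes (0.0133%).

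Ordered by level, most neighbouring groups of a gene overlapped in their libraries. Of the 15 neighbour pairs among the 16 groups, 7 were apart for Acadm, 6 for Cpt1a, 4 each for Acadl, Acadvl, Hadha and Ppard, 3 each for Cpt2 and Hadhb, and 1 for Ppara. The highest group mean was 2.26 times the lowest for the sparsely counted Ppara (passages 12 and 6 of NrESC, 0.846 and 0.374 CPM). It was 1.74 times for Acadm (ESC passage 6 against NrESC passage 8, 139.6 and 80.1 CPM). For Acadl it was 1.61 times (NrESC passage 8 against ESC passage 10, 19.7 and 12.2 CPM). Without passage 8 the values for Acadm and Acadl were 1.46 and 1.35 times. For Acadvl and Cpt2 it was 1.50 and 1.46 times, with the lowest level at passage 10 of NrESC and of ESC.

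Over the 16 group means of log2 CPM some of the genes moved alike, given here as descriptions, since the genes compared were read in the same libraries. Acadm and Hadhb, which both fell, had a Pearson correlation of 0.96 over all groups, 0.93 within the 8 ESC groups and 0.93 within the 8 NrESC groups, and of 0.94, 0.94 and 0.93 without passage 8. Both were highest at passages 6 and 10 of ESC and lowest at passage 8 of NrESC. Hadhb and Hadha, which share their upstream region, had a correlation of 0.40 over all groups, 0.54 within ESC and -0.32 within NrESC. Without passage 8 it was 0.67 over the 14 groups left, 0.56 within ESC and 0.39 within NrESC, so the negative value rests on that passage. Cpt1a and Acadl had a correlation of 0.81 within ESC, and of 0.72 without passage 8. In NrESC, where both were highest at passage 8 (183 and 19.7 CPM), it was 0.77 with that passage and 0.15 without it. For the 3 genes of largest spread, the genes of most similar course over the 16 groups were, for Acadm, Bptf (0.99), Zfp995, Kdm6a, Cul5 and Acsm4 (0.97). For Cpt2 they were Elmo2 (0.96), Pla2g5, Ubash3a, Tep1 and Lrfn3 (0.94). For the sparsely counted Ppara the highest was Gzf1 (0.89), followed by Klf10, Inafm2, Spidr and Tmc8 (0.80). Without passage 8 these correlations were 0.96 to 0.98 for Acadm, 0.94 to 0.98 for Cpt2 and 0.80 to 0.88 for Ppara.

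The other genes of the mitochondrial pathway were mixed as well. Of 28 tested genes of a list beyond the 9, 12 rose (42.9%, against 28.3% of all genes) and 4 fell (14.3%, against 27.2%) in NrESC, with a median log2 fold change of 0.02 against -0.0008 over all genes. Like the lists that follow, it was drawn up with earlier results of these data known, and its counts are descriptions. With the GC-content offset 11 rose and 7 fell (25.6% and 29.1% of all genes), and without passage 8, 12 rose and 5 fell (28.5% and 27.6%). In single passages 8 to 16 rose and 3 to 10 fell. The share that rose was above that of all genes at 8 of 8 passages, and the share that fell was below it at 5 and above it at 3 (passages 6, 10 and 14). Cpt1b went from 3.71 to 10.6 CPM, a log2 change of 1.50 (SE 0.145, adjusted p = 1.67e-05 in edgeR), and was higher at 8 of 8 passages, by 0.75 at passage 0 to 2.42 at passage 8. Without passage 8 it went from 3.74 to 9.40 CPM (1.36). Cpt1c, not called (-0.12), fell without passage 8 (-0.18, adjusted p = 0.00934 in edgeR). Chkb, the neighbour of Cpt1b on chromosome 15, also rose (0.67, adjusted p = 4.4e-05 in edgeR). How reads of such close genes were kept apart is not given in the sources used here. Echs1, the enoyl-CoA hydratase of short chains, rose by 0.54, Acad10, a dehydrogenase of the same family as Acadm, by 0.52, and Pcca, a subunit of propionyl-CoA carboxylase, by 0.48. The 4 that fell, named after their values were seen, were Slc25a20 (-0.42), Acaa2, the thiolase of the matrix (-0.33), Etfdh, which passes electrons on to the respiratory chain (-0.20), and Hadh (-0.11). Slc25a20, the step between Cpt1a and Cpt2, went from 112 to 83.9 CPM and was lower at 8 of 8 passages. The short-chain enzymes Acads (0.30) and Hsd17b10 (0.34), also named after their values were seen, rose.

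**Figure D5:**
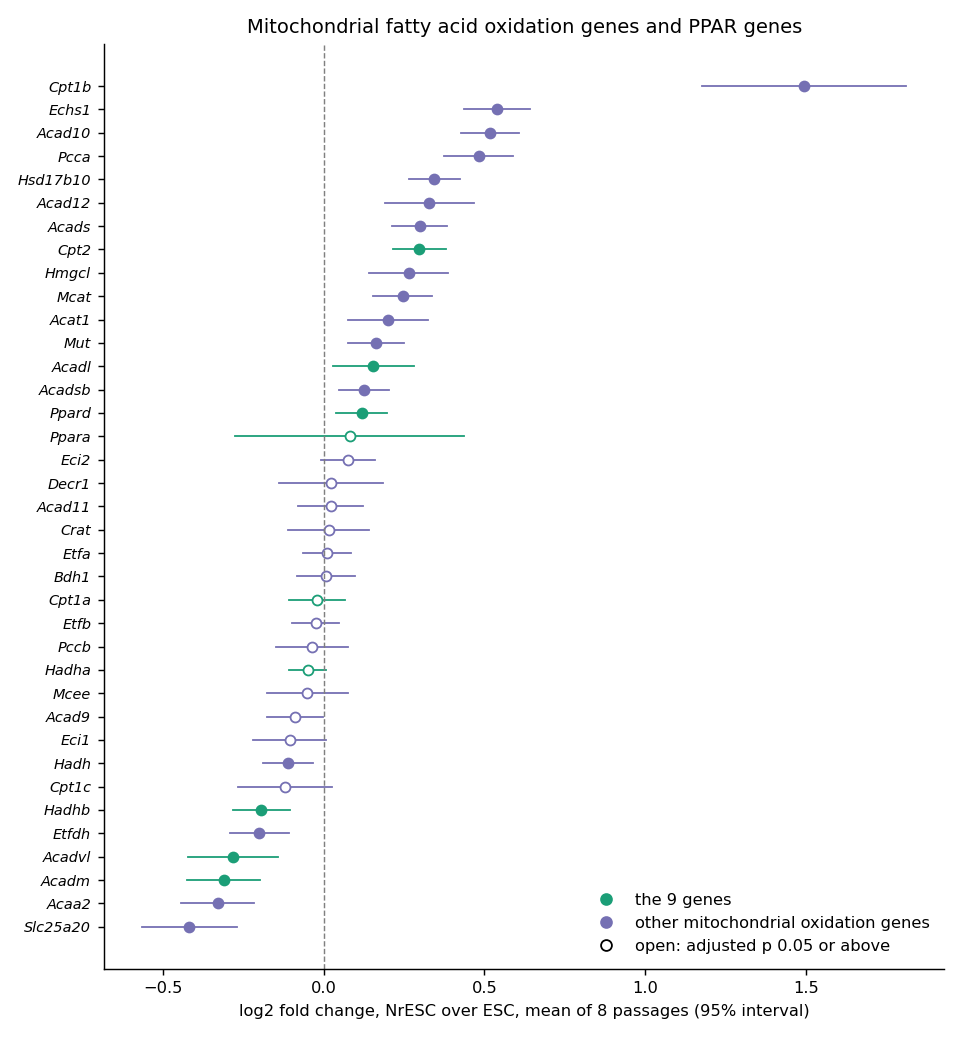
The log2 fold change of NrESC over ESC in the mean of 8 passages with 95% intervals, for the 9 genes (green) and 28 other mitochondrial fatty acid oxidation genes (purple); open points have an adjusted p of 0.05 or above. Cpt1b stands alone at 1.50, and Slc25a20, Acaa2, Acadm and Acadvl lie at the low end.

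Peroxisomal oxidation shortens very long and branched chains. Of 16 tested genes of that list 4 rose (25%) and 2 fell (12.5%), with a median of 0.05. The shares of all genes in the mean of 8 passages were 28.3% and 27.2%. With the GC-content offset 5 rose (31.2%, against 25.6% of all genes) and 3 fell (18.8%, against 29.1%). Pecr rose by 0.40, Hacl1 by 0.36 and the oxidase Acox3 by 0.21. Of 18 tested genes of fatty acid uptake, release and activation, 9 rose (50%, against 28.3% of all genes) and 6 fell (33.3%, against 27.2%), with a median of 0.16. The acyl-CoA synthetase Acsl3 went from 107 to 188 CPM (0.80, SE 0.0648) and the transporter Slc27a1 rose by 0.42. Mgll, which releases fatty acids from monoglycerides, fell from 6.55 to 1.92 CPM (-1.69, SE 0.201). Its log2 fold change was -0.24 at passage 0, not called, and -2.78 to -1.42 at the later passages, all called. The lipase cofactor Abhd5 fell by 0.32.

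A further list was drawn up around malonyl-CoA, the inhibitor of Cpt1. Of its 13 tested genes 7 rose (53.8%, against 28.3% of all genes) and 1 fell (7.69%, against 27.2%), with a median of 0.15. Beside enzymes of malonyl-CoA and its carbon supply, it holds the kinase Stk11 and subunits of the AMP-activated kinase. Among those subunits Prkaa2 (0.15) and Prkag2 (0.18) rose and Prkag1 (-0.23) fell, named after their values were seen. The other subunits and Stk11 were not called. Acaca, the carboxylase that makes malonyl-CoA in the cytosol, went from 136 to 266 CPM (0.97, SE 0.0335), and Fasn, which consumes it, from 822 to 1365 CPM (0.73, SE 0.0447). Acly and Slc25a1, which supply its carbon, rose by 0.28 and 0.35. Acacb, the carboxylase placed at mitochondria, was at 51.6 and 53.1 CPM and not called (0.04), and Mlycd, which degrades malonyl-CoA, rose by 0.55 (both named after their values were seen). Several of these genes are known LXR or SREBP targets.

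Of 20 tested genes of a list of PPAR partners, coregulators and related receptors, 3 rose (15%, against 28.3% of all genes). In the same list 10 fell (50%, against 27.2%), and the median was -0.08. With the GC-content offset 1 rose and 13 fell. The related receptors were Esrra, Esrrb and the LXR genes Nr1h2 and Nr1h3, of which only Esrra was called. Rxrg, among the 10 that fell, was barely counted (0.127 CPM in ESC and 0.028 in NrESC), and was named after its value was seen. In that list Pparg, Ppargc1a and Esrrg had too few counts to be tested. Sirt1, a deacetylase that activates PGC-1α, fell from 103 to 70.3 CPM (-0.57, SE 0.0941), by 1.30 at passage 8 and by 0.21 to 0.62 at the other passages, and by 0.46 in the mean without passage 8. Nrip1, a corepressor, fell by 0.25, and so did the PPAR and LXR partner Rxra, by 0.24, named after its value was seen. Lpin1, a phosphatidate phosphatase that also acts as a PPARα coactivator, rose from 36.1 to 61.7 CPM (0.77, SE 0.0613), and the receptor Esrra by 0.23, a call that was lost with the GC-content offset (0.05). Of 17 tested PPAR targets outside oxidation, 8 rose (47.1%, against 28.3% of all genes) and 4 fell (23.5%, against 27.2%), with a median of 0.19 (0.13 without passage 8). Ucp2, a mitochondrial carrier, rose from 138 to 203 CPM (0.58), catalase (Cat) by 0.28, Pdk4, which restrains glucose oxidation, from 3.54 to 7.11 CPM (0.91; without passage 8 from 3.45 to 5.88 CPM, 0.77), and the liver factor Creb3l3 from 0.724 to 1.40 CPM (0.98). The 4 that fell, named after their values were seen, were Vnn1, a pantetheinase (-1.45), the lipid droplet proteins Cidec (-0.61) and Cidea (-0.41), and Angptl4. Angptl4, often used as a readout of PPARδ activity, went from 31.2 to 25.6 CPM (-0.30, SE 0.0543, adjusted p = 0.000778 in edgeR), and Plin2, also named after its value was seen, was not called (0.08, SE 0.0502).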

How the data were processed

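The authors deposited 2 tables with a column per library: expected counts per gene symbol (RSEM output per the file headers, with no normalization) and TPM, which the authors had corrected for transcript length and scaled to a common sum. Per the submitters' processing notes STAR, Cufflinks 2.2.1, HTSeq 0.12.4, DESeq2, edgeR, RSEM and the mm9 build were used; the role of each tool, the annotation and the strand setting are not given in the sources used here. Of the counts, 0.837% were fractional, and all were rounded.

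Genes were filtered with filterByExpr on the 16 groups and scaled with TMM (factors 0.979 to 1.03) in edgeR 4.0.16 (R 4.3.3). For the mean of 8 passages the 2 libraries of a group were summed and passage was a block (7 residual degrees of freedom). Single passages and their variation came from a fit of 16 group means (16 residual degrees of freedom), and slopes from the sums (12). All adjusted p-values are edgeR quasi-likelihood values, Benjamini-Hochberg over 15036 genes, threshold 0.05. Fold changes are log2, NrESC over ESC, and intervals are 95%. On simulated counts the mean of 8 passages recovered 78% of 1.2-fold and 100% of 2-fold changes, with 10 false of 188 calls. Passage 14 alone recovered 72% and 100%, with 13 false of 185. The simulation changed 100 well-counted genes per fold of 15036 and gave passages no effect, whereas the data called 55.5% of genes. It therefore does not give the recovery of sparsely counted genes such as Ppara or the share of false calls in the data.

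The 9 genes and all lists were chosen with earlier results of these data known. Named genes were the 9, the 4 of smallest p in each list, and the 5 most correlated (Pearson, mean log2 CPM at least 1) with each of the 3 genes of largest spread; placeholder symbols were passed over, and not all genes the rule names are reported here. All 9 had a RefSeq entry on GRCm38.p6, used for sequence and position only and not mixed with mm9. The 2 libraries of each group differed beyond sampling noise (chi-square per degree of freedom 1.71 to 3.31). Alternatives used DESeq2 1.42.0, limma 3.58.1 with pseudocounts of 0.1 and 1 TPM, other scaling, no filter, a replicate block, samples or passages left out, and a GC-content offset.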

Additional observations from a re-analysis of the deposited data

Results flagged for a closer look

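Over the 8 passages, 27 series were tested for a value far from the rest by Dixon's ratio (the level in each arm and the difference between the arms, for each of the 9 genes), and 6 were picked out, where chance alone picks about 1 in 20. Of these, 3 are passage 8 of NrESC or its difference from ESC. Acadm was lowest there, at 80.1 CPM, with a log2 difference of -0.66, and Cpt1a highest, at 183 CPM. The Cpt1a difference was lowest at passage 4, at -0.29. In ESC, Ppara (0.818 CPM) and Ppard (40.2 CPM) were both highest at passage 14.

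The difference between the arms varied among passages in 7 genes (edgeR F-test over the 16-group fit). The adjusted p was 1.88e-12 for Acadm, 8.46e-10 for Cpt1a, 1.03e-06 for Acadvl, 0.00061 for Hadhb, 0.00706 for Ppard, 0.0128 for Acadl and 0.0302 for Hadha in edgeR. Acadvl was called from passage 6 on and at none of passages 0, 2 and 4, Acadl was called from passage 8 on, and Ppard from passage 0 to 8. That these differences begin or end at a given passage was not tested beyond this F-test.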

How the results depend on the processing

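Cpt2, Acadm, Acadvl and Hadhb kept their direction and call in the mean of 8 passages under all 18 alternatives. With the 16-group fit of 32 libraries Cpt1a (-0.020, adjusted p = 0.0497) and Hadha (-0.050) were called as well, and 5 of the 9 genes were lower. Over all genes, that fit called 5988 lower and 5880 higher, against 4083 and 4258 with the passage as the unit. On log2(TPM + 0.1) and log2(TPM + 1) with limma, Acadl (0.13 and 0.12) and Ppard (0.10 and 0.095) were not called, Hadha was (-0.068 in both), and 1 gene was higher. The GC-content offset, chosen after the data were seen, turned Ppard to -0.047, not called, and made Hadha called (-0.073). Acadl was not called without replicate 1 (0.151) or 2 (0.156), nor without passage 0 (0.16), 2 (0.17), 8 (0.13), 10 (0.14), 12 (0.15) or 14 (0.12). Without passage 2 Ppard was not called (0.10) and 1 gene was higher. Called in neither setting, Cpt1a turned to 0.018 without passage 4 and Ppara to -0.0043 without passage 12. The slope of Ppara in NrESC was the 1 slope called with 32 libraries in one fit. Without replicate 2 of NrESC at passage 10, 4 genes were called there.

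The replicate numbers did not pair the libraries at every passage. Deviations of same-numbered libraries of the arms had correlations of 0.59 at passage 6 and 0.63 at passage 12, over 9467 genes. At the other passages the correlations ran from -0.21 to 0.04. With the replicate block the 16-group fit called Hadha (-0.050), as it did without the block, and Cpt1a was not called; at passage 0 Ppara was -0.022, not called.

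Values at single passages that changed sign were called in neither setting. At passage 0 Hadha was -0.0017 with RLE scaling, -0.0015 with DESeq2 and -0.00028 with only the 4 libraries of that passage, and Ppara -0.0057, -0.045 and -0.014. With single libraries left out, Ppara at passage 0 ran from -0.53 to 0.60, Hadha at passage 0 from -0.031 to 0.031 and at passage 8 from -0.040 to 0.0079, Acadl at passage 0 from -0.045 to 0.25 and at passage 6 from -0.042 to 0.057. Cpt1a at passage 2 ran from -0.023 to 0.012 and at passage 14 from -0.00085 to 0.027, Acadvl at passage 4 from -0.077 to 0.025 and Ppara at passage 14 from -0.22 to 0.086. Of 1190 values recomputed at single passages, for slopes and variation, and for other named genes, 1116 kept their direction and side of the threshold, 50 lost the call, 6 gained it and 18 changed sign. Ppara, with 8 to 46 counts per library, had the widest 95% interval of the 9 genes, -0.28 to 0.44.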
